A study of Mus musculus with 45 samples.

Results

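Regulatory T cells (Tregs) of the N genotype, labelled as deficient in neuropilin-1 (Nrp1), were compared between B16 melanomas and non-draining lymph nodes. The comparison holds 10 of the 45 libraries of the series, 5 of tumour Tregs and 5 of lymph node Tregs, chosen by their titles and tissue labels and by no measured value. All 10 carry the genotype label Het_Nrp1-, which the Nrp1-deficient Tregs of heterozygous mice carry as well. The design text names homozygous and heterozygous deficient mice, and the titles keep the N libraries apart, so N is used here as the name of the group. Wild-type Tregs (genotype label WT) of the same tissues, 5 tumour and 5 lymph node libraries, served as the nearest comparison and shared the fit of 20 libraries. B16 is a transplantable mouse melanoma line. No agent or treatment beside the tumour is named for any of the 4 groups. What drove the deletion, which exons it removed, how old the mice were and how many were pooled for a library is not given in the sources used here. Each library was made from 5000 sorted Tregs with a kit for very small amounts of RNA (SMARTer), and the labels tell single sorting (3 libraries a group) from double sorting (2 libraries a group). Replicates ds1 and ds2 were read as the double-sorted ones from their names, and 2, 3 and 4 as the single-sorted ones. Whether the 5 replicates of a group were separate mice is not stated, so a p-value here reflects the spread among libraries and that spread may be technical.

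Tregs are CD4 T cells that depend on the transcription factor Foxp3 and restrain other immune cells. In lymph nodes many of them are resting cells that recirculate by way of homing receptors such as CCR7, while Tregs in tumours are mostly activated effector cells with high levels of CTLA-4, ICOS and TNF-receptor family members. Nrp1 sits in the cell membrane, binds semaphorins and growth factors beside their receptors, marks many thymus-derived Tregs and supports their stability in tumours. The title of the series speaks of fragility of Tregs and of interferon gamma, a state in which Tregs keep Foxp3 while they take on features of cells that make this cytokine.

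Levels are given as CPM, the count of a gene scaled to library size and TMM factor, in the order of replicates 2, 3, 4, ds1 and ds2, and SDs are over n = 5 libraries. A fold change is the tumour level against the lymph node level on the log2 scale, written in brackets as log2 and its value. Total counts of the 10 libraries ran from 4356893 to 21579623. Both ds2 libraries were the shallowest (4731524 counts in the lymph node and 4356893 in the tumour), and Malat1, a nuclear RNA, took 1.98% and 1.49% of their counts against 0.146% to 0.705% in the other 8. Both ds1 libraries stood apart in another way, with TMM factors of 0.7024 and 0.749 and 18026 and 20218 genes with a count, against at most 13708 genes in the other 8. Libraries of a group differed well beyond counting noise (chi-square per degree of freedom 68.44 to 346.5), and none was a copy of another. In bulk libraries a lower level can mean fewer cells that hold a transcript or less of it in each cell, and these cannot be told apart.

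Nrp1 (chr8:128358604-128503363, mm10, plus strand), the gene named in the genotype, stood at 158, 164, 131, 145 and 187 CPM in tumour N Tregs. Lymph node N Tregs held 167, 142, 189, 352 and 210.3 CPM. The ranges overlapped, with the tumour library lower in 4 of 5 same-numbered pairs, and the difference did not pass the test (log2 fold change -0.43, SE of 0.28, adjusted p = 0.617). WT Tregs held 113 to 289 CPM in the tumour and 260.0 to 441 CPM in the lymph node. Since the deleted exons are unknown, these gene-level values are no test of the deletion, and the genotype is taken from the labels.

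Foxp3 (chrX:7573644-7595245), the factor on which Treg identity depends, ranged from 0.121 to 67.4 CPM over the 10 libraries. Tumour N Tregs held 14.9, 11.7, 15.2, 25.1 and 25.4 CPM and lymph node N Tregs 3.39, 9.63, 6.50, 0.121 and 67.4 CPM. The lymph node values spanned the whole range of the tumour ones, from almost no counts in the ds1 library to the highest level in ds2. The difference did not pass the test (log2 fold change 1.37, SE of 1.11, adjusted p = 0.708). Ccdc22 and Ppp1r3f overlap the span of Foxp3 on the other strand, so its counts are uncertain. Other Treg genes were abundant in every library. Ikzf2, which encodes Helios, a factor of thymus-derived Tregs, stood at 1019.6 to 1442 CPM in the tumour and 896 to 1220.5 CPM in the lymph node. Il2ra, the interleukin-2 receptor chain CD25, stood at 312 to 883 and 448 to 776 CPM. Neither passed the test (log2 0.24, adjusted p = 0.663 and log2 -0.17, adjusted p = 0.846). The T cell list, which holds Cd3g and Cd4, summed to 6322 to 11334 CPM in the tumour and 5739 to 11650.3 CPM in the lymph node, with 0 of 12 tested members called.

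**Figure D1:**
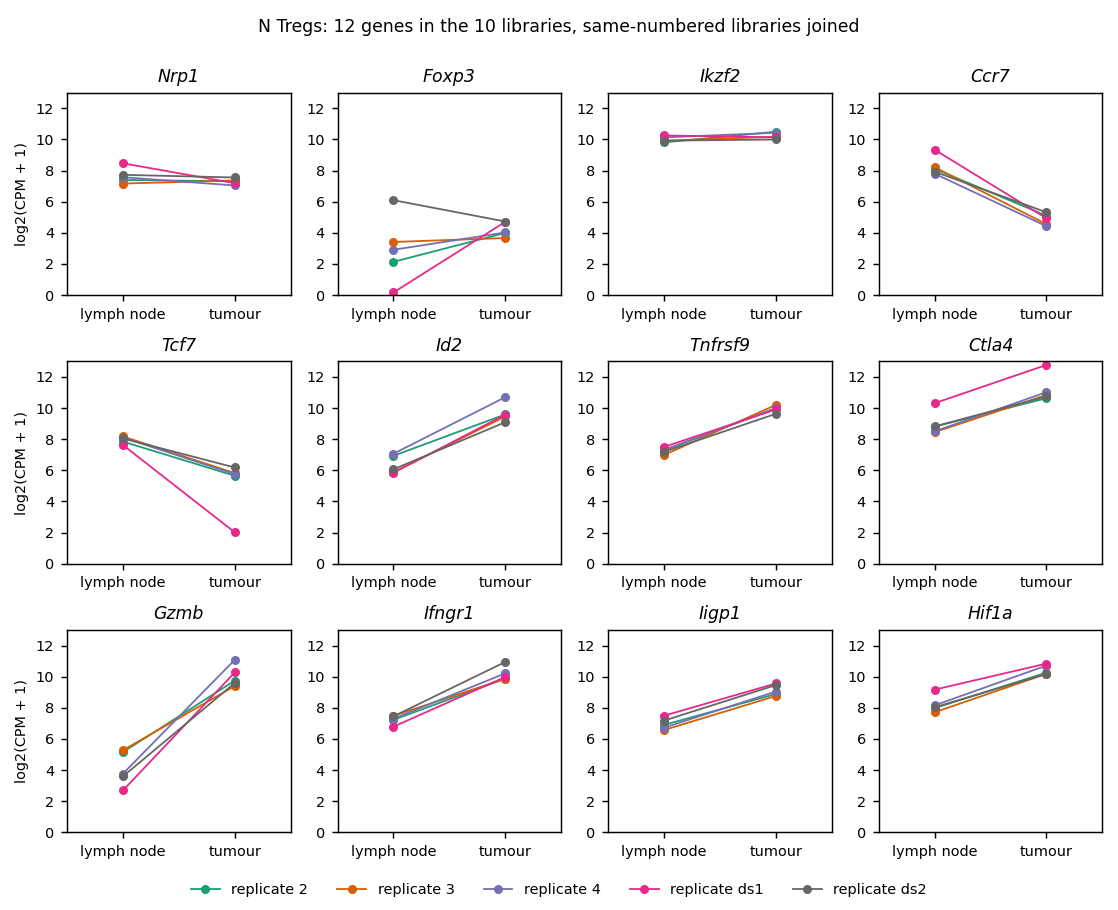
Levels of 12 genes as log2(CPM + 1) in the 5 lymph node and 5 tumour libraries of N Tregs, with each line joining the libraries of 1 replicate number. Ccr7 and Tcf7 go down and Id2, Tnfrsf9, Ctla4, Gzmb, Ifngr1, Iigp1 and Hif1a go up in 5 of 5 pairs, while Nrp1, Foxp3 and Ikzf2 do not move in 1 direction.

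Across 11884 genes tested with edgeR's quasi-likelihood test, with the replicate number as a block, 307 (2.58%) differed between tumour and lymph node N Tregs at an adjusted p below 0.05. Of these, 210 (1.77% of genes tested) were higher and 97 (0.816%) lower in the tumour. The median log2 fold change over all genes tested was 0.02. In 347 genes (2.92%) all 5 tumour libraries lay above all 5 lymph node libraries, and in 208 (1.75%) all lay below. The tumour library was the higher in 5 of 5 pairs for 1174 genes (9.88%) and the lower for 994 (8.36%). These shares are the background for the counts of list members given below. The count of 307 was 150 without the block, 162 without the lymph node library of replicate 2, 188 without lymph node ds2, 190 without tumour replicate 4 and 198 without tumour replicate 2. It was 469 when ds1 was left out of all groups and 138 when ds2 was. DESeq2 called 785, limma-voom 716 and edgeR without a filter on low counts 506, while the double-sorted libraries alone gave 22 calls and limma on the authors' log2 values 5. The 307 genes kept their sign in each of these fits in which they were tested. They were chosen from the same libraries, so kept signs are no check by independent data.

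The gene with the lowest p-value, named here after its values were seen, was Ly6a, which encodes the activation marker Sca-1 and is induced by interferons. It stood at 2228, 2622, 3391, 3508 and 1871 CPM in the tumour. Lymph node N Tregs held 240.3, 268, 335, 634 and 185 CPM. Every tumour library lay well above every lymph node library (log2 fold change 3.08, SE of 0.24, adjusted p = 1.78e-07). Reads of related Ly6 genes may be shared with it. Ccl7, a chemokine for monocytes and among the genes with the largest rises, had no count in any lymph node library and 19.2, 21.3, 37.3, 0.337 and 3.40 CPM in the tumour, at least 457-fold higher against a floor of 3 counts over the lymph node group (adjusted p = 0.00181). Csf2, the growth factor GM-CSF, was also without a count in the lymph node and held 3.65, 18.2, 24.7, 19.2 and 2.60 CPM in the tumour, at least 305-fold higher (adjusted p = 0.0044). The inhibitory receptor genes Gp49a and Lilrb4 are near-identical neighbours, so reads may be split between them. Gp49a stood at 85.5, 50.7, 76.8, 66.7 and 244 CPM in the tumour against 3 counts in all lymph node libraries together (ratio of summed counts 1889, 95% exact interval 646 to 9161, counting error only), and Lilrb4 rose (log2 8.25, adjusted p = 0.000225). Also among the largest rises were the secreted factor Metrnl (145 ± 154 CPM in the tumour against 0.46 ± 0.827 CPM, log2 fold change 8.24, adjusted p = 0.00231) and the metal-binding protein Mt1 (46.2 ± 18.96 CPM against 1.24 ± 2.14 CPM, log2 7.43, adjusted p = 0.00079). Osteopontin (Spp1), an adhesion protein and cytokine, had 171 ± 218 CPM against 3.04 ± 4.96 CPM (log2 7.77, adjusted p = 0.018, called in 14 of 23 alternative fits). The interferon-inducible Ifi204 (log2 7.33, adjusted p = 0.00417), the cell cycle linker Cables1 (log2 7.53, adjusted p = 0.0113), and Oit3 (log2 7.36, adjusted p = 0.0181, called in 12 of 23 alternative fits) and Smim3 (log2 8.31, adjusted p = 0.00406) rose as well. Gstt1, a glutathione transferase, had 1 count in the lymph node group and 1.73, 0.083, 1.70, 52.4 and 2.60 CPM in the tumour, where ds1 alone held most of it (adjusted p = 0.046), and the call was made in 7 of 20 alternative fits. Macrophages also make Ccl7 and osteopontin. The macrophage list of 16 genes summed to 8.21 to 203 CPM in the tumour and 0.176 to 75.00 CPM in the lymph node, with 1 of 11 tested members called and Cd300e at 0 in the lymph node libraries. Its part in these rises was not tested.

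Igfbp4, a binding protein of insulin-like growth factors found in naive T cells, was among the genes with the largest falls. It stood at 204, 178, 207, 191 and 115 CPM in lymph node N Tregs. Tumour N Tregs held 1.78, 0.332, 2.01, 0 and 1.001 CPM, below every lymph node value (log2 fold change -7.59, SE of 1.002, adjusted p = 9.89e-05). Id3, an inhibitor of E-protein transcription factors that holds T cells in a resting state, went from 215 ± 171 CPM in the lymph node to 9.21 ± 9.34 CPM in the tumour (log2 fold change -4.81, SE of 0.59, adjusted p = 3.77e-05). Cd83, a surface protein of activated lymphocytes and dendritic cells, fell (log2 -3.53, adjusted p = 0.0131). Gata1, a transcription factor of the erythroid lineage, fell from 60.2 ± 52.97 CPM to 1.49 ± 1.38 CPM (log2 -5.47, adjusted p = 0.00684). The receptor gene Treml2 (log2 -4.13, adjusted p = 0.00513), the neuronal vesicle protein Nsg2 (log2 -4.55, adjusted p = 0.0134), the protease Capn3 (log2 -4.73, adjusted p = 0.00229, overlapping Ganc), Gm4956 (log2 -5.74, adjusted p = 0.000328) and Gm14085 (log2 -4.93, adjusted p = 0.0164) fell too. The sialyltransferase St8sia6 (log2 -4.05, adjusted p = 0.0367), the transporter Slc22a2 (log2 -7.13, adjusted p = 0.0367) and the potassium channel Kcna2 (log2 -6.53, adjusted p = 0.0191) fell and were called in 8 of 23 alternative fits, 12 of 23 alternative fits and 14 of 23 alternative fits. Cd79b, a chain of the B cell receptor complex (log2 -4.66, adjusted p = 0.0281), and H2-Ob, a class II accessory chain (log2 -3.54, adjusted p = 0.0284, called in 12 of 23 alternative fits), fell too and are known mainly from B cells. The B cell list of 10 genes summed to 39.9 to 382 CPM in the lymph node and 5.22 to 24.5 CPM in the tumour, and its part in these falls was not tested.

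Genes of naive and lymphoid-homing T cells were lower in tumour N Tregs as a group. Of 24 listed members, all tested, 14 fell and 0 rose, 18 were lower in 5 of 5 pairs, and 13 did not overlap between the groups. Over all genes tested 0.816% were called lower, 8.36% were lower in 5 of 5 pairs and 1.75% lay wholly below. The list had a median log2 fold change of -2.15, beside 0.02 over all genes tested. Ccr7 (chr11:99144196-99155077), the receptor that guides lymphocytes into lymph nodes, stood at 276, 297, 222, 647 and 243 CPM in the lymph node. The tumour libraries held 33.1, 22.4, 20.5, 29.5 and 38.8 CPM. Every tumour value lay far below every lymph node value (log2 fold change -3.51, SE of 0.40, adjusted p = 2.01e-05). S1pr1, the sphingosine receptor by which T cells leave lymphoid organs, fell from 367 ± 145 CPM to 84.3 ± 33.9 CPM (log2 fold change -2.10, SE of 0.45, adjusted p = 0.0115). The transcription factors of quiescent T cells fell with them. Tcf7, which encodes TCF-1, stood at 229, 288, 275, 197 and 264 CPM in the lymph node and at 49.2, 55.4, 53.03, 3.03 and 71.6 CPM in the tumour. The groups did not overlap, and ds1 had the lowest tumour value (log2 fold change -2.64, SE of 0.49, adjusted p = 0.00308). Its partner Lef1 fell from 487 ± 310.3 CPM to 114 ± 77.3 CPM (log2 -2.09, adjusted p = 9.2e-05). Foxp1 (log2 -2.10, adjusted p = 0.000259), Foxo1 (log2 -1.03, adjusted p = 0.00902), Bach2 (log2 -3.18, adjusted p = 0.0242) and Satb1 (log2 -1.20, adjusted p = 0.0138), which keep T cells quiescent or organise their chromatin, fell also. Bcl2, the survival protein of resting lymphocytes, dropped from 319 ± 146 CPM to 52.4 ± 25.8 CPM (log2 fold change -2.69, SE of 0.45, adjusted p = 0.0012). Dapl1 (log2 -5.38, adjusted p = 0.0142), the interleukin-6 receptor Il6ra (log2 -2.55, adjusted p = 0.0373, called in 10 of 23 alternative fits) and Ly6c1 (log2 -2.48, adjusted p = 0.0494, called in 8 of 23 alternative fits), whose sequence resembles other Ly6 genes, fell as well. Il7r, the interleukin-7 receptor, and Cd27 were at log2 fold changes of -0.10 and 0.14 and not called (adjusted p = 0.949 and 0.908). Without ds2 in any group 8 members were called lower, without ds1 18, and in the double-sorted libraries alone 0 of 23.

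Treg identity genes did not move in 1 direction. Of 19 tested, 5 rose and 1 fell, with a list median of 0.24. Tnfrsf18, the receptor GITR, stood at 1377, 1269, 1372, 1336 and 1454 CPM in the tumour. Node libraries held 483, 432, 498, 667 and 559.8 CPM, and the groups did not overlap (log2 fold change 1.38, SE of 0.18, adjusted p = 7.56e-05). Il2rb, the signalling chain shared by the interleukin-2 and interleukin-15 receptors, rose from 126 ± 50.3 CPM to 326 ± 134 CPM (log2 1.45, adjusted p = 0.0131), and Ctla4, Entpd1 and Tigit, described below, were the other risers. Folr4, the folate receptor family member that Tregs carry, fell from 558 ± 209 CPM to 299 ± 98.6 CPM (log2 -0.90, adjusted p = 0.0417, called in 7 of 23 alternative fits). Transcription factors of effector Tregs were higher in the tumour, 7 of 16 with 0 lower and a median of 1.95. Id2 (chr12:25093799-25097140), an antagonist of E proteins in effector lymphocytes, held 773, 706, 1667, 763 and 547 CPM in the tumour. The lymph node libraries held 121, 57.7, 133, 56.7 and 65.95 CPM, all below the lowest tumour library (log2 fold change 3.33, SE of 0.31, adjusted p = 1.55e-06). Id2 rose where Id3, its relative, fell. Bhlhe40, a repressor induced by activation, rose from 35.7 ± 20.02 CPM to 305 ± 68.5 CPM (log2 fold change 3.29, SE of 0.45, adjusted p = 0.000138). An antisense gene overlaps it. Prdm1 (chr10:44437177-44528501), which encodes Blimp-1, the factor of effector Tregs that make interleukin-10, stood at 158, 139, 152, 58.5 and 163 CPM in the tumour and 1.43, 24.8, 13.9, 0.243 and 13.9 CPM in the lymph node. No lymph node library reached the lowest tumour one (log2 fold change 4.13, SE of 0.74, adjusted p = 0.00259). Rbpj, the nuclear partner of Notch (log2 2.22, adjusted p = 0.000946), Crem, a cyclic AMP responsive factor (log2 2.53, adjusted p = 0.00163), and Maf, a factor of interleukin-10 production (log2 1.68, adjusted p = 0.00214), rose too. Pparg, the factor of tissue Tregs in fat, had no count in the lymph node and 2.40, 3.99, 2.71, 1.01 and 5.20 CPM in the tumour, at least 71.5-fold higher (adjusted p = 0.0131), though at a low level. Irf4 and Batf, which drive effector Tregs, stood at log2 -0.22 and 0.79 and were not called (adjusted p = 0.933 and 0.565).

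Co-stimulatory receptors of the TNF-receptor and CD28 families were higher in tumour N Tregs in 4 of 12 cases and lower in 0 (median 1.38). Tnfrsf9, the receptor 4-1BB of recently activated Tregs, stood at 1022, 1177, 1014, 961 and 794 CPM in the tumour. Lymph node libraries held 153, 126, 158, 180.0 and 145 CPM. The groups were far apart, with little spread within each (log2 fold change 2.68, SE of 0.31, adjusted p = 2.07e-05). Camta1 overlaps its span. Icos, a co-stimulatory receptor of the CD28 family, rose from 443 ± 96.97 CPM to 1634 ± 357 CPM (log2 fold change 1.90, SE of 0.22, adjusted p = 2.1e-05). Tnfrsf1b, the TNF receptor that expands Tregs, rose too (log2 1.40, adjusted p = 0.00902), with Tnfrsf18 as the fourth. Tnfrsf4, the receptor OX40, stood at 2896 ± 1422 CPM against 1192 ± 762 CPM and did not pass (log2 1.37, adjusted p = 0.0509). Inhibitory receptors were higher in 7 of 11 cases and lower in 0 (median 2.06). Ctla4 (chr1:60887000-60915832), which removes the ligands of CD28 from antigen-presenting cells, stood at 1589, 1835, 2079, 7001 and 1716 CPM in the tumour and 447, 348, 362, 1271 and 451 CPM in the lymph node. The ds1 library was the highest of its group in both tissues, and the groups did not overlap (log2 fold change 2.22, SE of 0.32, adjusted p = 0.000225). Havcr2, the receptor TIM-3 of highly suppressive and of exhausted T cells, held 68.1, 107, 105, 83.4 and 67.8 CPM in the tumour. Node libraries held 1.19, 24.6, 2.11, 0.121 and 1.76 CPM, a wide range set by replicate 3 (log2 fold change 5.32, SE of 0.91, adjusted p = 0.00153). Lag3, a receptor for class II molecules, rose from 0.972 ± 0.887 CPM to 18.7 ± 5.86 CPM (log2 4.77, adjusted p = 0.00687). Pdcd1, the receptor PD-1, rose from 81.1 ± 19.95 CPM to 268 ± 104 CPM (log2 1.65, adjusted p = 0.011). Tigit, a receptor for the poliovirus receptor family, rose as well (log2 2.996, adjusted p = 0.021). Cd200r1 (log2 1.82, adjusted p = 0.022) and the lectin Klrg1, a mark of terminally differentiated cells (log2 2.06, adjusted p = 0.0284), make up the 7. Tigit, Cd200r1 and Klrg1 were called in 14, 13 and 11 of 23 alternative fits. Without ds2 in any group 3 of the inhibitory receptors were called and 4 of the co-stimulatory ones.

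Molecules by which Tregs suppress were higher in tumour N Tregs in 6 of 17 cases and lower in 0 (median 2.70). Gzmb (chr14:56258838-56262260), the protease granzyme B, stood at 862, 677, 2183, 1243 and 777 CPM in the tumour. Lymph node libraries held 34.6, 37.8, 12.6, 5.46 and 11.1 CPM. Each tumour library was above each lymph node library by a wide margin (log2 fold change 6.08, SE of 0.65, adjusted p = 7.4e-06). Reads of related granzymes may be shared with it. Il10, an anti-inflammatory cytokine, held 79.5, 122, 189.7, 295 and 82.3 CPM in the tumour and 0.382, 4.94, 11.7, 1.94 and 1.06 CPM in the lymph node. Here too the groups did not overlap (log2 fold change 5.80, SE of 0.92, adjusted p = 0.000686). Fgl2, a secreted suppressor of dendritic cells, rose from 45.3 ± 26.7 CPM to 331 ± 55.4 CPM (log2 2.99, adjusted p = 0.000203), and Entpd1, the ectoenzyme CD39 that breaks down ATP, from 19.6 ± 11.96 CPM to 157 ± 39.4 CPM (log2 3.41, adjusted p = 0.00029). Galectin-1 (Lgals1), a lectin that impairs effector T cells, rose (log2 1.47, adjusted p = 0.000812). Fasl, the death ligand, rose (log2 4.48, adjusted p = 0.0312) and was called in 7 of 23 alternative fits. Ebi3, a subunit of interleukin-35, stood at 58.7 ± 19.8 CPM against 18.5 ± 13.2 CPM and was higher in 5 of 5 pairs without passing the test (log2 1.90, adjusted p = 0.128). Tgfb1, the cytokine TGF-beta, was low in both tissues (1.85 to 25.4 CPM and 0 to 20.8 CPM, log2 0.42, adjusted p = 0.923), and its sign turned in 3 of 23 alternative fits. Genes of cytotoxic lymphocytes moved with this group. The CD8 list of 11 genes, which shares Gzmb with it, summed to 1975 to 5076 CPM in the tumour and 271 to 713 CPM in the lymph node. In the CD8 list 4 of 11 members rose: Gzmb, Nkg7 (log2 3.77, adjusted p = 2.92e-07), Klrk1 (log2 6.25, adjusted p = 0.00745) and Gzmk (log2 7.60, adjusted p = 0.0142, called in 11 of 21 alternative fits). Its defining genes did not pass: Cd8a held 111, 52.4, 90.7, 104 and 21.4 CPM in the tumour and 28.96, 36.8, 40.1, 10.2 and 0 CPM in the lymph node (log2 2.20, adjusted p = 0.479). Cd8b1 held 114, 109.8, 121, 3.87 and 27.8 and 184, 59.2, 64.7, 112 and 29.5 CPM (log2 -0.15, adjusted p = 0.962). The part of cytotoxic cells in the rise of Gzmb was not tested.

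The interferon gamma and Th1 list, which holds the cytokine, its receptor and the factors that induce it, had 6 members higher and 1 lower of 18 tested (median 1.19). Ifng (chr10:118441046-118445892) stood at 205, 274, 360.4, 628 and 5.80 CPM in tumour N Tregs. Lymph node N Tregs held 25.9, 14.2, 8.88, 31.7 and 7.21 CPM. The tumour library was far higher in 4 pairs and not in the ds2 pair, its tumour library lying below every lymph node library (log2 fold change 3.83, SE of 0.88, adjusted p = 0.0182), and the call was made in 6 of 10 fits that each left out 1 library. Both receptor chains changed, in opposite directions. Ifngr1 (chr10:19591949-19610229), the ligand-binding chain, held 940.2, 939.8, 1194, 1015 and 1984 CPM in the tumour and 149, 178, 157, 109.8 and 175 CPM in the lymph node. All tumour libraries lay above all lymph node ones, ds2 highest (log2 fold change 2.92, SE of 0.24, adjusted p = 2.48e-07). Ifngr2, the signalling chain, held 9.52, 1.33, 7.12, 0.168 and 18.4 CPM in the tumour and 83.4, 43.1, 32.1, 129 and 41.7 CPM in the lymph node. All tumour libraries lay below the lymph node ones (log2 fold change -3.48, SE of 0.87, adjusted p = 0.0319, called in 14 of 23 alternative fits). Tbx21, which encodes T-bet, the Th1 master factor, stood at 52.2, 57.8, 58.05, 79.3 and 42.4 CPM in the tumour. Its level in the node was 0.143, 4.77, 5.40, 1.21 and 0.703 CPM, with no overlap (log2 fold change 4.78, SE of 0.88, adjusted p = 0.00327). Cxcr3, a T-bet target and chemokine receptor, rose from 113 ± 68.9 CPM to 463 ± 251 CPM (log2 2.01, adjusted p = 0.0174, called in 13 of 23 alternative fits). Stat4, which signals from the interleukin-12 receptor, rose from 128 ± 32.8 CPM to 301 ± 137 CPM (log2 1.205, adjusted p = 0.0154). Ccl5, a chemokine of effector T cells, rose (log2 3.31, adjusted p = 7.4e-06). For the beta 2 subunit of the interleukin-12 receptor, Il12rb2 stood at 13.5, 28.4, 35.5, 0.505 and 41.03 CPM in the tumour and 0 to 4.22 CPM in the lymph node and did not pass (log2 5.41, adjusted p = 0.0992).

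Some of the genes that interferons induce were higher in tumour N Tregs. In the interferon gamma response list 7 of 29 members rose and 0 fell, with a median of 0.80 and 13 higher in 5 of 5 pairs. Of the 28 type I interferon genes 7 rose and 0 fell, with a median of 1.95 and 20 higher in 5 of 5 pairs, beside 9.88% of all genes. All 28 type I list members had a fold change above 0. Iigp1, a GTPase that acts against vacuolar parasites, stood at 474, 434, 529, 758 and 706 CPM in the tumour. Lymph node libraries held 119, 94.5, 105, 179.7 and 144 CPM, all below the tumour ones (log2 fold change 2.17, SE of 0.21, adjusted p = 2.96e-06). Igtp, a GTPase of the same family whose locus overlaps Irgm2, had 696, 595, 612, 979.6 and 980.2 CPM in the tumour and 170.2, 324, 254, 122 and 341 CPM in the lymph node. Its groups did not overlap either (log2 fold change 1.74, SE of 0.25, adjusted p = 0.000293). The protease inhibitor gene Serpina3g (log2 2.54, adjusted p = 0.00403) and the antigen presentation genes B2m (log2 0.73, adjusted p = 0.0068) and Tap1 (log2 0.80, adjusted p = 0.0322) rose. Gbp6 (log2 1.05, adjusted p = 0.0485) and Gbp7 (log2 0.94, adjusted p = 0.0494), GTPases of a family with near-identical copies, lay close to the threshold, and Tap1, Gbp6 and Gbp7 were called in 7 of 23 alternative fits, 6 of 23 alternative fits and 10 of 23 alternative fits. Irf1, an early target, was not called (log2 0.04, adjusted p = 0.969). Among type I targets, Ifi27l2a held 2703, 2363, 4676, 2538 and 2473 CPM in the tumour and 653, 765, 1378, 1139 and 547 CPM in the lymph node. These groups did not overlap (log2 fold change 1.74, SE of 0.21, adjusted p = 2.35e-05). Ifit3, which binds foreign RNA complexes, had 325, 256, 344, 91.1 and 568 CPM in the tumour and 15.1, 104, 78.03, 81.6 and 18.6 CPM in the lymph node. Here ds1 was nearly level between the tissues and the other 4 pairs were well above (log2 fold change 2.45, SE of 0.49, adjusted p = 0.00678). Mx1, an antiviral GTPase, rose from 17.7 ± 13.1 CPM to 196 ± 86.5 CPM (log2 3.42, adjusted p = 0.00259), and the interferon-induced Rtp4 from 119 ± 78.04 CPM to 482 ± 111 CPM (log2 2.10, adjusted p = 0.00177). The RNA sensor Ifih1 (log2 2.44, adjusted p = 0.0229), the 2-5A synthetase Oas3 (log2 2.31, adjusted p = 0.021) and the nucleic acid sensor Zbp1 (log2 1.63, adjusted p = 0.0478, called in 10 of 23 alternative fits) complete the 7. Oas3 was called in 11 of 23 alternative fits. Without ds2 in any group each list had 4 members called higher (and the interferon gamma list 1 lower), and without ds1 10 and 16.

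The upstream sequences of Ifit3 and Igtp are shown as called members of the 2 interferon lists that hold the interferon-stimulated response element, searched as GAAANNGAAA on both strands within 250 bases before to 50 bases after the start site (RefSeq, GRCm38.p6). Each sequence is the 250 bases before the start site, 5′ to 3′ on the gene's strand, and capitals mark the matches. Ifit3 (chr19:34583279-34583528, plus strand) holds 2 and Igtp (chr11:58199306-58199555, plus strand) 1.
Ifit3: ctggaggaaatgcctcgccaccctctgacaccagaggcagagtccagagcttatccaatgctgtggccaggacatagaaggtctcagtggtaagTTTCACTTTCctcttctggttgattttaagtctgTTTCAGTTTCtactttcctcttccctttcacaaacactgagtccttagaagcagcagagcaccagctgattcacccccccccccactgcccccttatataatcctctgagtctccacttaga
Igtp: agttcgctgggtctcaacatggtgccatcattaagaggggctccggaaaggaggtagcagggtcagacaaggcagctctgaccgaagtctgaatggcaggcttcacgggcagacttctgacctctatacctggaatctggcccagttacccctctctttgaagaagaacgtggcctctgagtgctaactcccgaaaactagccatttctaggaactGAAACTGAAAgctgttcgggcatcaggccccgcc
The matches begin 156 and 122 bases before the start site in Ifit3 and 34 bases before it in Igtp. The element was in 3 of 3 called type I members found in the promoter table (of 7 called) and in 8 of 17 members not called, and in 3 of 5 called interferon gamma response members (of 7) and 9 of 15 not called, beside 3.99% of 27025 symbols. The gamma-activated site TTCNNNGAA was in 3 of 5 called and 6 of 15 not called members of the interferon gamma list, beside 9.55% of symbols. A match is a description of these letters and not a site of binding.

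Genes of glycolysis and of the response to low oxygen were higher in tumour N Tregs. Of 28 tested, 10 rose and 0 fell, all 28 had a fold change above 0, 18 were higher in 5 of 5 pairs and 13 did not overlap, and the median was 1.66. Over all genes tested 1.77% were called higher, 9.88% were higher in 5 of 5 pairs and 2.92% lay wholly above. Hif1a (chr12:73901375-73947530), the transcription factor that is stabilised when oxygen is low, stood at 1229, 1167, 1686, 1840.5 and 1165 CPM in the tumour. The lymph node libraries held 252, 209, 285, 575 and 261 CPM, and none reached the lowest tumour one (log2 fold change 2.21, SE of 0.23, adjusted p = 6.82e-06). Of the enzymes between glucose and lactate, Pfkp, Aldoa, Tpi1, Gapdh, Pgk1, Pkm and Ldha rose, and Hk1, Hk2, Gpi1, Pfkl, Pgam1 and Eno1 did not pass (log2 0.26, 2.40, 0.80, 2.02, 0.64 and 0.81). Pfkp, a phosphofructokinase, rose (log2 1.65, adjusted p = 0.0261) and was called in 12 of 23 alternative fits. Aldolase (Aldoa) rose from 512 ± 87.4 CPM to 1614 ± 379 CPM (log2 1.66, adjusted p = 0.000161), and Tpi1, which interconverts the triose phosphates, from 79.1 ± 22.3 CPM to 551 ± 272 CPM (log2 2.87, adjusted p = 0.000451). Gapdh (log2 1.17, adjusted p = 0.0153), Pgk1 (log2 1.85, adjusted p = 0.00918) and Pkm, pyruvate kinase (log2 1.63, adjusted p = 0.000331), followed. These enzymes have many pseudogene copies, with which reads may be shared. Ldha, which turns pyruvate into lactate, stood at 1463, 1621, 1592, 1981 and 1410.1 CPM in the tumour and 884, 674, 1050.4, 1174 and 657 CPM in the lymph node. The rise was small and without overlap (log2 fold change 0.88, SE of 0.19, adjusted p = 0.0101). Slc16a3, the transporter that exports lactate, went from 0.0852 to 6.98 CPM to 13.2 to 33.4 CPM (log2 5.52, adjusted p = 0.00737). Bnip3 (chr7:138890836-138909519), a mitophagy receptor induced by low oxygen, stood at 126, 82.1, 128, 114 and 204 CPM in the tumour. The node libraries stood at 9.46, 4.52, 2.29, 0.243 and 7.21 CPM, far below (log2 fold change 5.67, SE of 0.96, adjusted p = 0.00135). The glucose transporters Slc2a1 and Slc2a3 stood at log2 1.86 and 1.67 and did not pass (adjusted p = 0.141 and 0.25). Of 31 genes of oxidative phosphorylation, 0 were called at an adjusted p, and their median was -0.13. Without ds2 in any group 6 of the glycolysis and hypoxia genes were called, and without ds1 12.

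The upstream sequences of Ldha and Bnip3, the enzyme at the end of the pathway and the hypoxia gene with the largest rise among the 10, are shown for the core of the hypoxia response element, searched as ACGTG on both strands in the same window of 300 bases (RefSeq, GRCm38.p6). Capitals mark the core, and CACGTG holds it on both strands. Ldha (chr7:46845554-46845803, plus strand, 1 of 2 start sites in the table) has 3 such stretches and Bnip3 (chr7:138909507-138909756, minus strand) 1.
Ldha: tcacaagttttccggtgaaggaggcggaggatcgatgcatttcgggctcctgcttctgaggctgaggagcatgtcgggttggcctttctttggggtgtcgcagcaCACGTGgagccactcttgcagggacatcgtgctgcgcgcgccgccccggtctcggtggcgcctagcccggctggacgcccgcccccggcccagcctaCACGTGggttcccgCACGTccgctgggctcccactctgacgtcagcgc
Bnip3: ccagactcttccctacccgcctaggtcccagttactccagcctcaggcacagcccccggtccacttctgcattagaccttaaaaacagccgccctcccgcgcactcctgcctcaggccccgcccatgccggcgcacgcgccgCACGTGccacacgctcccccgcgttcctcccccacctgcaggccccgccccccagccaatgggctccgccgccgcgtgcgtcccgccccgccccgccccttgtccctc
In Ldha the stretches begin 145, 48 and 34 bases before the start site, and in Bnip3 108 bases before it. The core was in 8 of 10 called members of the list and in 11 of the 15 members not called that the table holds, beside 21.8% of all symbols.

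**Figure D2:**
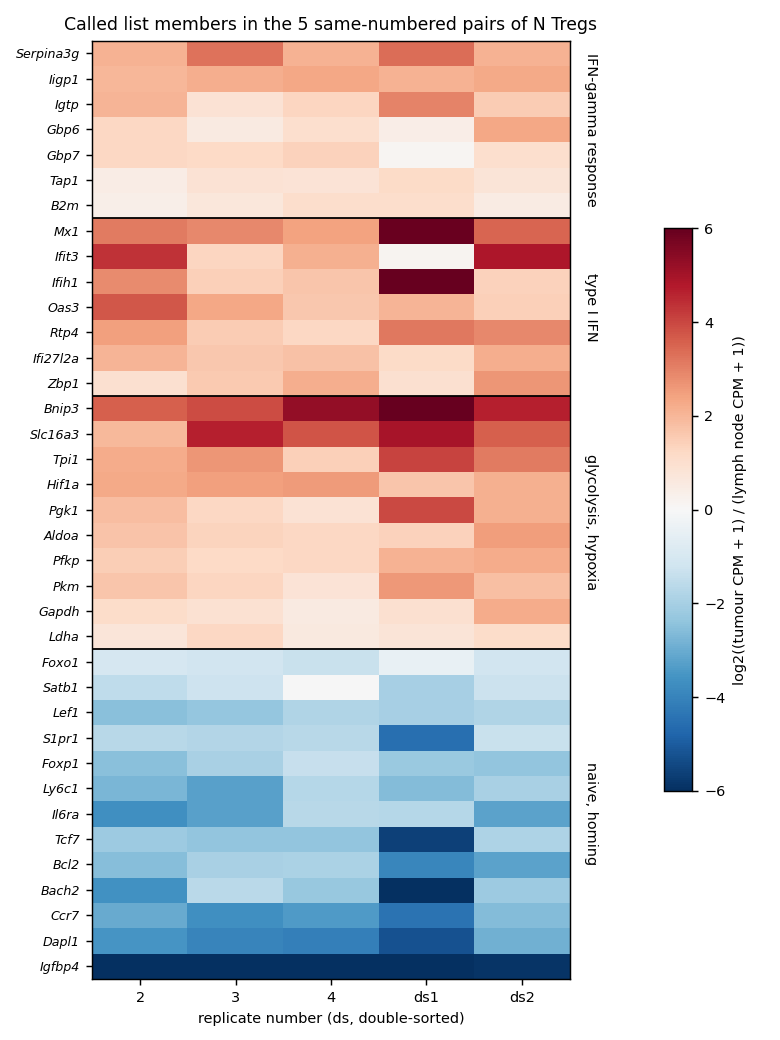
Difference between tumour and lymph node in each of the 5 same-numbered pairs of N Tregs, as log2((tumour CPM + 1) / (lymph node CPM + 1)) with colours ending at -6 and 6, for called members of 4 lists. The 7 interferon gamma response, 7 type I interferon and 10 glycolysis and hypoxia genes are above 0 in every pair, and the 13 naive and homing genes shown are below 0 in every pair, Satb1 by the least in replicate 4.

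The chemokine genes Ccl3 and Ccl4 were close to absent in lymph node N Tregs and present in the tumour. Of 10 chemokine genes tested 3 rose and 0 fell (median 3.50). Ccl4, an inflammatory chemokine, stood at 441, 670.1, 1086, 975 and 245 CPM in the tumour. In the lymph node it stood at 0, 0, 29.5, 2.43 and 0 CPM, with 3 libraries at 0 (log2 fold change 8.76, SE of 1.51, adjusted p = 0.00406). Ccl3, its neighbour and close relative, with which reads may be shared, held 222, 264, 486, 195 and 54.6 CPM against 0, 0.0852, 16.7, 0 and 0 CPM (log2 fold change 8.41, SE of 1.31, adjusted p = 0.000568). Ccl5 was the third. Of 19 receptors 5 rose and 2 fell, the latter being Ccr7 and S1pr1. Cxcr6 (chr9:123806475-123811760, within the span of Fyco1), a receptor of tissue-resident T cells, stood at 541, 965, 1122, 1115 and 565 CPM in the tumour. Lymph node libraries held 37.8, 47.6, 45.7, 10.3 and 93.7 CPM, with no overlap (log2 fold change 4.21, SE of 0.45, adjusted p = 7.4e-06). Ccr2, the receptor for Ccl2 and Ccl7, rose from 95.4 ± 50.9 CPM to 1199.5 ± 554 CPM (log2 fold change 3.62, SE of 0.49, adjusted p = 0.000129). Cxcr3 rose as well, and Ccr1 (log2 7.14, adjusted p = 0.0469) was called in 9 of 23 alternative fits. Ccr8, known as a marker of tumour Tregs, held 89.3, 82.4, 51.4, 10.6 and 132 CPM in the tumour and 10.8, 25.5, 57.3, 0.85 and 41.7 CPM in the lymph node. These ranges overlapped and the difference was not called (log2 fold change 1.96, SE of 0.79, adjusted p = 0.29). Among 22 adhesion genes 3 rose and 1 fell. The risers were galectin-3 (Lgals3, log2 3.19, adjusted p = 0.000572), the membrane-binding annexin Anxa2 (log2 1.95, adjusted p = 0.00293) and the integrin chain Itgav (log2 1.89, adjusted p = 0.0242). Itgav was called in 14 of 23 alternative fits.

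Survival genes did not move in 1 direction. Of 23 members of the BCL2 and apoptosis list 3 rose and 1 fell. Beside the fall of Bcl2, its relatives Bcl2a1d (log2 1.54, adjusted p = 0.0284) and Bcl2a1b (log2 0.93, adjusted p = 0.0367) rose, though these are near-identical copies and were called in 7 of 23 alternative fits and 6 of 23 alternative fits. Fasl was the third riser. The pro-survival Bcl2l1 stood at log2 2.23, adjusted p = 0.334 and was not called. Immediate early genes, which follow receptor stimulation or handling of cells, rose in 5 of 23 cases (median 0.74). Fosl2, an AP-1 subunit, held 62.6, 94.3, 126, 70.2 and 52.4 CPM in the tumour and 0.0956, 8.35, 0.275, 0.243 and 1.23 CPM in the lymph node. The groups did not overlap (log2 fold change 6.59, SE of 1.04, adjusted p = 0.000672). Dusp1, a phosphatase of stress kinases (log2 1.85, adjusted p = 0.00902, overlapping Ergic1), Junb (log2 1.73, adjusted p = 0.018), Fos (log2 2.24, adjusted p = 0.0191) and Nr4a2 (log2 3.48, adjusted p = 0.0484, called in 9 of 23 alternative fits) had overlapping ranges. Junb and Fos were called in 12 and 14 of 23 alternative fits. Without ds2 in any group 1 of the 5 was called. Genes of cell division were not called. Of 25 mitosis genes and 25 DNA replication genes, 0 passed at an adjusted p in either direction (medians 0.55 and 0.19). Mki67, the proliferation marker Ki-67, held 338, 366, 234, 255 and 435 CPM in the tumour and 249, 223, 225, 282 and 206 CPM in the lymph node, higher in 4 of 5 pairs (log2 fold change 0.44, SE of 0.29, adjusted p = 0.612).

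Ribosomal protein genes, a list of 82 tested genes chosen by their symbols after the values were seen, were lower in the tumour by similar amounts. Of these 29 fell and 0 rose, beside 0.816% and 1.77% of all genes tested. In 5 of 5 pairs 65 were lower, beside 8.36% of all genes, and the list median was -0.81. The summed level of the list was 56626, 57733, 64377, 137509 and 38288 CPM in the tumour. In the lymph node it was 124220.0, 96799, 91163, 245505 and 68265 CPM, higher in each same-numbered pair, with ds1 the highest of its group in both tissues. The count of 29 was 22 with DESeq2's size factors, 6 without ds2 in any group, 3 in the double-sorted and 1 in the single-sorted libraries alone, and 0 both without the replicate block and with the authors' log2 values. The median stayed between -0.97 and -0.65.

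**Figure D3:**
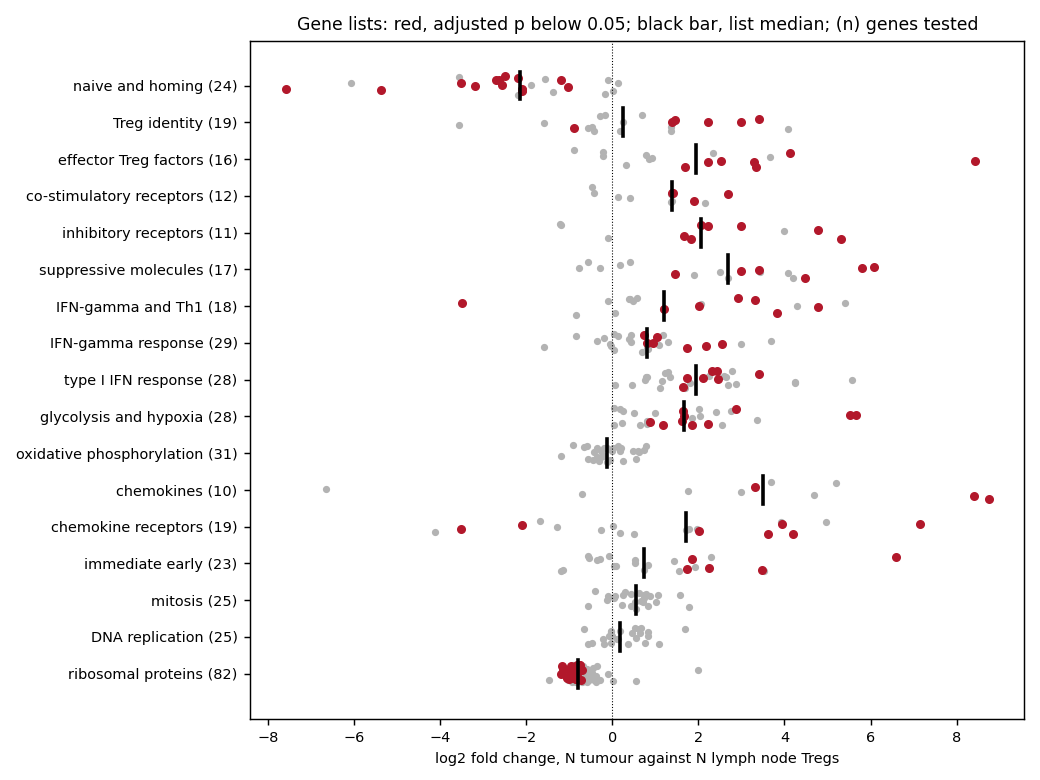
Log2 fold change of each tested gene in 17 lists, N tumour against N lymph node Tregs, with the number tested in brackets, called genes in red and the list median as a black bar. The naive and homing list lies to the left (median -2.15), the suppressive, inhibitory receptor and glycolysis lists to the right, the oxidative phosphorylation list around 0, and the ribosomal protein list in a narrow band below 0.

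Several genes that mark cells other than Tregs differed between tumour and node too. The B cell list had 2 of 9 tested members lower, Cd79b and Fcer2a, the latter with 3 counts in the tumour group (ratio of lymph node to tumour counts 345, 95% exact interval 118 to 1674, counting error only, adjusted p = 0.0447, called in 9 of 21 alternative fits). Fcer2a held 13.5, 25.02, 15.8, 2.31 and 0 CPM in the lymph node, and both ds2 libraries were at 0. The B cell marker Ms4a1 held 13.4, 37.6, 18.6, 0.243 and 0 CPM in the lymph node, where the double-sorted libraries were near 0. Not all members were low in lymph node ds1. There Cd79b held 245, 106, 119, 147 and 30.1 CPM and Blk 0.287, 8.65, 16.3, 21.8 and 0 CPM in the same order of libraries. The list summed to 382, 303, 264, 174 and 39.9 CPM in these lymph node libraries. In the tumour Ms4a1 was at 0 in 4 of 5 libraries. Melanoma genes summed to 45.7, 22.7, 39.5, 31.2 and 980.0 CPM in the tumour, where ds2 alone was high. In the lymph node they summed to 48.03, 23.4, 40.5, 77.8 and 69.8 CPM, and WT tumour libraries reached 4300.3 CPM. Pmel, whose span overlaps Cdk2 and Dgka, made up 73.5 CPM of the lymph node sum in ds1 and 32.5 CPM in ds2. Apoe and Trpm1 held 22.6 and 12.3 CPM in lymph node replicate 2. Dct held 3.74, 0.415, 7.62, 1.01 and 229 CPM in the tumour. Its lymph node levels were 0.0478, 0.0852, 0.0916, 0.728 and 0 CPM. Of the 14 tested members 12 had a fold change above 0 and 2 below. The pigment enzyme Tyrp1 was the single called member of 14 (15.3, 3.57, 7.62, 0.842 and 236 CPM in the tumour, log2 6.12, adjusted p = 0.0371, called in 9 of 23 alternative fits). In the lymph node Tyrp1 was highest in ds2 at 4.40 CPM. The dendritic list, which contains class II genes, summed to 306 to 734 CPM in the tumour and 67.9 to 782 CPM in the lymph node, with 1 of 13 called, the transcription factor Zbtb46 (log2 5.59, adjusted p = 0.0494, called in 7 of 22 alternative fits). In the macrophage list Ms4a7 (log2 7.27, adjusted p = 0.0494) was the called member, with 4.98, 10.96, 8.12, 119.8 and 0 CPM in the tumour, most of it in ds1, and was called in 7 of 20 alternative fits. All 11 tested members had a fold change above 0 (median 2.62). Lyz2 held 4.23, 39.2, 29.8, 45.7 and 2.40 CPM in the tumour and 26.6, 43.7, 45.5, 0.243 and 0 CPM in the lymph node. The complement genes C1qa, C1qb and C1qc had means of 3.24, 16.2 and 10.4 CPM in the tumour and 0.378, 2.27 and 2.39 CPM in the lymph node. In the NK cell list Nkg7 alone was called, of 7 tested, and that gene, which the CD8 list also holds, made up a mean of 1652 of 1705 CPM of the list in the tumour and 136 of 189 CPM in the lymph node. Ncr1, a receptor that defines NK cells, held 0, 0, 12.8, 0 and 0 CPM in the tumour and 0, 0, 14.6, 0.121 and 0.703 CPM in the lymph node. The NK receptors Klre1, Klra1 and Klra7 had means of 7.75, 5.10 and 4.67 CPM in the tumour against 1.29, 0.179 and 0.426 CPM. Other members did not follow. Gzma and Eomes had means of 20.4 and 4.34 CPM against 35.6 and 6.91 CPM, and Klrb1c 3.94 against 3.41 CPM. Of the 7 tested members 5 had a fold change above 0 and 2 below. The endothelial, fibroblast, neutrophil and erythroid lists had 0 members called of 6, 3, 1 and 1 tested. Tumour ds2 was the highest of the N libraries for the endothelial Kdr, Cdh5 and Plvap (29.0, 19.6 and 22.6 CPM). It was also highest for Sparc of the fibroblast list (107 CPM), while Col1a1 of that list was at 0 there. Pecam1, the most abundant endothelial member, reached 85.1 CPM in the tumour and 121 CPM in the lymph node. The source of this RNA was not tested.

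**Figure D4:**
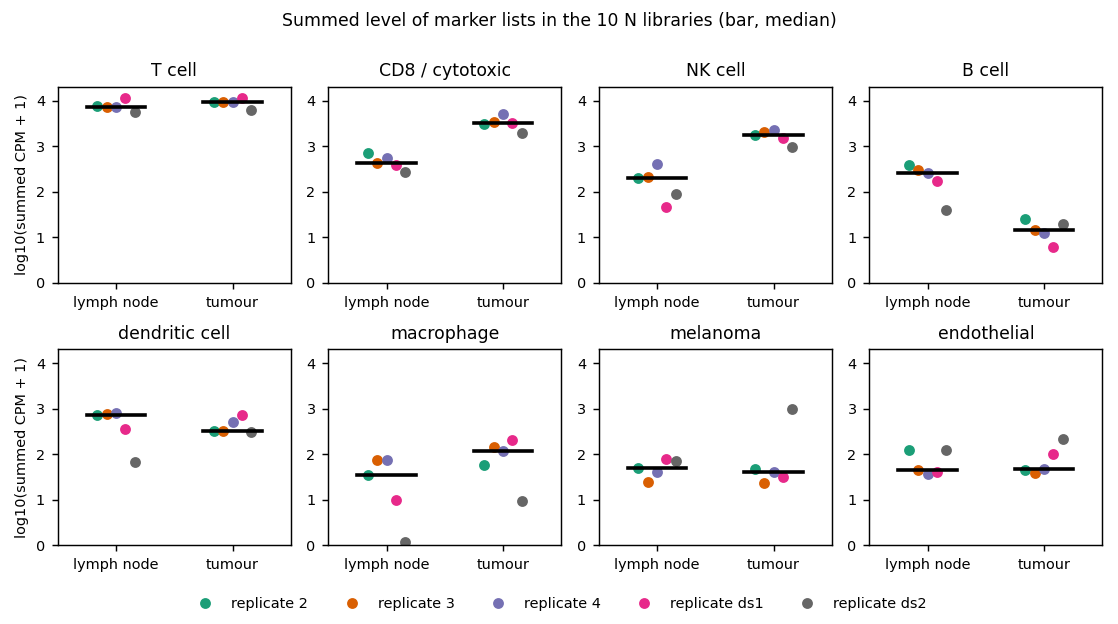
Summed level of 8 marker lists in the 5 lymph node and 5 tumour libraries of N Tregs, as log10(summed CPM + 1), with points coloured by replicate number and the group median as a bar. The T cell sums overlap, the CD8 and NK sums, the latter mostly Nkg7, which both lists hold, are higher and the B cell sum lower in all tumour libraries, and tumour ds2 stands out for melanoma genes at 980 CPM.

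WT Tregs were used to ask whether any of these tissue differences belongs to the N genotype. In the same fit 359 genes (3.02%) differed between WT tumour and WT lymph node, 203 higher (1.71%) and 156 lower (1.31%). Of the genes called in N, 202 were called in WT (65.8% of the N calls and 56.3% of the WT calls), each in the same direction, and 304 of 307 had the same sign. The N and WT libraries are separate but shared the filter, the spread estimate and the replicate terms, so these calls are not independent. Across all 11884 genes, which are not independent replicates, the log2 fold changes had a Pearson's r of 0.531. The test of the difference itself, the tissue change in N minus that in WT, called 0 genes (0%) with edgeR, where 329 had an unadjusted p below 0.05 and the lowest adjusted p was 0.998. DESeq2 called 13, limma-voom 1 and edgeR without a filter on low counts 6. That does not show that the 2 genotypes respond alike. Counts of called list members in both genotypes were as follows. Naive and homing genes had 14 lower in N and 17 in WT, glycolysis and hypoxia genes 10 and 12 higher, interferon gamma response genes 7 and 7, type I interferon genes 7 and 5, and inhibitory receptors 7 and 5. Of these lists, 0 had a member with a called interaction. Ribosomal proteins had 29 and 52 lower. The WT lymph node library of replicate 3 had the highest ribosomal sum of the 20 libraries, 288515 CPM. Its TMM factor of 0.7465 and its 19485 genes with a count lay within the range of the N ds1 libraries. The 5 genes of lowest interaction p, none of them called, were Pter, Lgals3, Aif1, Slpi and Odc1. Lgals3, galectin-3, was at 226 ± 127 CPM in N tumour against 27.5 ± 19.3 CPM in N lymph node Tregs. In WT it was at 109 ± 49.2 CPM against 83.4 ± 57.1 CPM (interaction 2.58, unadjusted p = 0.000689, adjusted p = 0.998). Aif1, a protein of macrophages, had a fold change of 5.87 in N and -1.40 in WT (interaction 7.27, unadjusted p = 0.00071). Pter, a phosphotriesterase-related protein, had -6.60 and 1.87 (unadjusted p = 0.000547), and the protease inhibitor Slpi 4.39 and -4.23 (unadjusted p = 0.00113). Odc1, the first enzyme of polyamine synthesis, rose in both, by 2.02 in N and 3.40 in WT (unadjusted p = 0.0014). Ifng stood at 3.83 in N and 4.31 in WT, Ifngr2 at -3.48 and -1.91, Il12rb2 at 5.41 and 7.51, Icos at 1.90 and 1.07 and Ccr8 at 1.96 and 4.63. Their unadjusted interaction p were 0.678, 0.162, 0.32, 0.0126 and 0.0249, and no adjusted p was below 0.998.

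**Figure D5:**
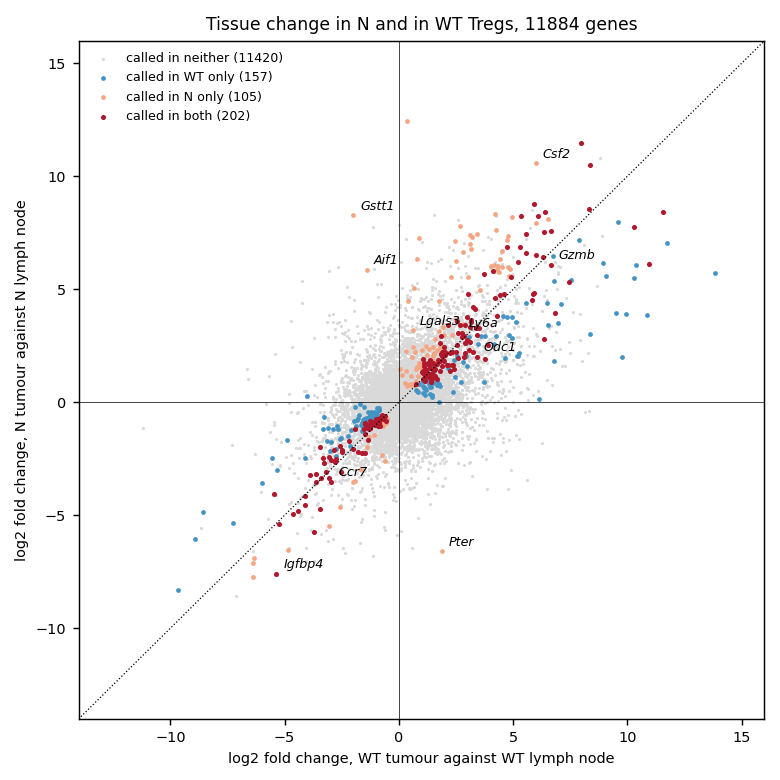
Log2 fold change between tumour and lymph node in N Tregs (vertical axis) against WT Tregs (horizontal axis) for 11884 genes, coloured by where they were called, with the dotted line marking equal change. The 202 genes called in both lie in the quadrants of equal sign, and labelled genes such as Pter and Aif1 lie off the line without passing the test of the difference.

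The 3 single-sorted pairs and the 2 double-sorted pairs were also fitted alone. The single-sorted libraries gave 228 calls, of which 164 were among the 307, and the double-sorted ones 22, of which 21 were. All 307 genes kept their sign in the single-sorted fit, as did the 297 that could be tested in the double-sorted one. The 307 were called from these same libraries, so shared calls and kept signs are no check by independent data. List medians had the same sign in each for the naive and homing list (-2.005 and -2.51), the suppressive list (1.96 and 3.09), the type I interferon list (1.82 and 1.94) and the glycolysis and hypoxia list (1.30 and 1.87). The sign differed for the T cell (0.39 and -0.11), interleukin-1 family (0.39 and -0.47) and dendritic lists (-0.64 and 3.18). It differed as well for the Th2, Th17 and follicular helper, semaphorin, endothelial, fibroblast and erythroid lists. Gzmb had a log2 fold change of 5.31 in single-sorted and 7.06 in double-sorted libraries, Ifngr1 2.69 and 3.25, Id2 3.36 and 3.22, and Ccr7 -3.37 and -3.85. Of the named genes that were not called, Ikzf2, Il2ra and Tgfb1 differed in sign between the sorts. The B cell list was lower by a median of -6.43 and -1.16, with 9 and 4 members tested.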

How the data were processed

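RNA-seq libraries of sorted Tregs were analysed from the deposited table of counts per gene (23420 symbols). Per the submitters' processing notes, STAR, featureCounts and limma were used with the mouse build mm10, with no role or version stated. How reads on both strands or on several genes were counted is not given in the sources used here, so genes that overlap or resemble each other are uncertain. The authors also deposited a table of log2 values for 10832 genes, in which every replicate number has the same mean for each gene to within 2.2e-13. It was used only as an alternative, with limma.

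Counts were fitted with edgeR 4.0.16 in R 4.3.3 (TMM factors, filterByExpr by group, robust quasi-likelihood F test), with group and replicate number as terms, over the 20 N and WT libraries. Benjamini-Hochberg adjusted p below 0.05 over 11884 genes was the threshold, and the SE is the fold change divided by the root of F. The block follows the replicate numbers in the labels. In replicate 2 the tumour and lymph node libraries deviated together with a correlation of 0.0979, against at most 0.0562 with another number. On simulated counts for the N comparison (11509 genes) 41 of 100 genes changed 4-fold and 61 of 100 changed 8-fold were called, with 2 unchanged genes called. These counts were drawn from the spread estimated here, with no tissue change in WT, so they do not test whether that spread holds.

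Named were the 15 called genes with the largest and the 15 with the smallest fold change (same direction in 5 of 5 pairs, mean of at least 10 CPM in the higher group), up to 6 called members of each list by p-value, a set of Treg genes whatever their result, the 5 genes of lowest interaction p and the most abundant marker genes. Genes given in addition, such as Ly6a, the other called members of the lists and members quoted as not called, were chosen after their values were seen. The comparison, the lists and the named set were chosen with earlier results of these data known. Floors are 3 counts over a group and intervals 95% exact. Coordinates are from GENCODE vM21 (mm10, 129 of 133 named genes matched) and promoters from RefSeq (GRCm38.p6). Alternatives used limma 3.58.1 and DESeq2 1.42.0, another filter, other size factors, other sets of libraries and leaving out each library. The other libraries of the series entered 1 alternative only. Some list members are counted but not reported here by name.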

Additional observations from a re-analysis of the deposited data

Results flagged for a closer look

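In each group of 5 libraries the values of the named genes and the marker sums were searched for a library that stood apart, by a gap to its neighbour of over 0.71 of the group's range on the log2 scale. Of 292 groups of values 48 had one. For normally spread values chance gives about 1 in 20, a rate that does not hold for genes near 0. A group with 1 nonzero library among zeros is flagged whatever the value, as for Gstt1, Il1rn, Mt2 and Gzmk in the lymph node. Replicate ds1 held 29 of them, ds2 9, replicate 4 4, and replicates 2 and 3 3 each. The tumour ds1 library stood highest, in CPM, for Il2rb at 564, Metrnl at 419, Kcna2 at 2.19, Lef1 at 252, Ctla4 at 7001, Cxcr3 at 905 and Bcl2a1d at 416. It stood lowest for Smim3 at 0.337, Cd79b at 0, Tcf7 at 3.03, S1pr1 at 26.1, Prdm1 at 58.5, Entpd1 at 90.3, Il12rb2 at 0.505 and Anxa2 at 345. So Tcf7 and S1pr1 of the homing list and Prdm1 of the effector factors and Entpd1 of the suppressive list were at their lowest there, while Lef1, a homing gene, was at its highest. The lymph node ds1 library stood highest for Cables1 at 1.46, Gstt1 at 0.121, Gata1 at 154, Treml2 at 236, Cd83 at 881, Ccr7 at 647, S1pr1 at 622, Ctla4 at 1271, Pdcd1 at 116, Gbp7 at 652 and Il1rn at 0.364. It stood lowest for Tigit at 0.364, Ifih1 at 0.971 and Itgav at 9.10. Ctla4 was thus highest in ds1 in both tissues, and S1pr1 was highest in the lymph node ds1 library and lowest in the tumour one. The tumour ds2 library stood lowest for Tnfrsf1b at 233, Ifng at 5.80 and Slc16a3 at 13.2, and its melanoma marker sum of 980.0 CPM stood above a group median of 39.5. The lymph node ds2 library stood lowest for Igfbp4 at 115 and Dapl1 at 7.91, highest for Bcl2 at 576 and Tyrp1 at 4.40, and highest for the erythroid marker sum at 12.8. Among the single-sorted libraries, tumour replicate 2 was highest for Lag3 at 29.1, tumour replicate 3 lowest for Klrg1 at 84.8 and tumour replicate 4 highest for Ifi27l2a at 4676. In the lymph node, replicate 2 was highest for Dusp1 at 140.0 and lowest for Klrg1 at 8.98, replicate 3 highest for Il21 at 2.05 and Gzmk at 0.938, and replicate 4 highest for Mt2 at 0.549, Oit3 at 0.275 and Ccl3 at 16.7. No cause of these values was tested.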

How the results depend on the processing

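All 307 genes that differed between N tumour and lymph node kept their sign in each alternative in which they were tested. The alternatives use the libraries from which the 307 were chosen. Counts depended on the tool and on single libraries, and the cause was not tested. The fit without the replicate block called 150 genes in N, of which 138 were among the 307, and 186 in WT. Same-numbered tumour and lymph node libraries deviated together with correlations of 0.0979, 0.101, 0.191, 0.21 and 0.362 (replicates 2, 3, 4, ds1, ds2), each above the highest with any other number, which is a hint from the data and not from the labels. DESeq2 called 785 in N, 1058 in WT and 13 in the interaction, limma-voom 716, 776 and 1, and edgeR with no filter on low counts 506, 579 and 6, with a median log2 fold change over all genes in N of 0.172. With limma on the authors' log2 values 5 genes were called in N, 0 in WT (571 at an unadjusted p below 0.05) and 0 in the interaction. The double-sorted libraries alone gave 22 and 32. Chosen after seeing the data, leaving ds1 out of all groups gave 469 and 657 and leaving out ds2 138 and 185. Leaving out 1 library at a time gave 162 to 248 calls in N. The 10 N libraries alone (264), all 45 libraries (350), DESeq2's size factors (302), a filter of at least 5 CPM in 5 libraries (303) and the single-sorted libraries (228) stayed within 1.5 times of 307. The heterozygous groups in the fit of 45 hold near-identical library pairs, which kept them out of the main fit. Of 124 named genes that were called, 76 were called without the block, 73 without ds2 and 114 without ds1, and 3 of the 123 in the authors' log2 table with its values. Among named genes that were not called, Ikzf2 turned to -0.336 with the authors' log2 values and -0.132 in the double-sorted libraries, Mki67 to -0.1103 with the authors' log2 values, Il2ra to 0.0557 in the single-sorted libraries, and Tgfb1 to -0.0695 in the single-sorted libraries and -0.0299 without ds1, with a range of -0.0125 to 0.746 when 1 library was left out at a time. Depth limits genes near 0 in the lymph node, where 3 counts were taken as the floor.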

Other observations

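Some gene groups had 0 or 1 member called between tumour and lymph node N Tregs. Of 15 tested neuropilin, semaphorin and plexin genes 0 were called. Sema4a, a ligand of Nrp1, stood at 42.02 ± 27.5 CPM in the tumour and 38.9 ± 10.5 CPM in the lymph node (SD, n = 5), with a log2 fold change of 0.10 and adjusted p = 0.981. Of 19 genes of TGF-beta signalling 0 were called (median -0.29). The receptor gene Tgfbr2 held 188 ± 64.7 CPM against 208 ± 50.2 CPM (-0.19, adjusted p = 0.838). Of 23 genes of cholesterol and fatty acid synthesis 0 were called (median 0.58). Sema4a and Tgfbr2 were picked after their values were seen. Of 22 genes of the PI3K, AKT and FOXO pathway 1 fell, Foxo1, and 0 rose.

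In other groups single members stood out. Among 17 transporters and metal-binding proteins 3 rose, namely Slc16a3, Mt1 and its neighbour and close relative Mt2 (1.07, 3.99, 10.5, 10.95 and 8.41 CPM in the tumour against 0, 0, 0.549, 0 and 0 CPM, adjusted p = 0.0297). Mt2 was called in 11 of 23 alternative fits. Among 17 receptors and ligands related to the interleukin-1 family 1 rose. This was Il1rn, the natural antagonist of the interleukin-1 receptor, with 2.22, 4.15, 14.8, 0.842 and 10.8 CPM in the tumour and 3 counts in the lymph node group (ratio of summed counts 122, 95% exact interval 41.4 to 595, counting error only, adjusted p = 0.0268). The call of Il1rn was made in 8 of 21 alternative fits. Macrophages make Il1rn too, and the part of their RNA was not tested. Among 12 tested genes of the Th2, Th17 and follicular helper programmes 1 rose, the cytokine gene Il21, with 9.96, 70.8, 58.9, 0.842 and 1.20 CPM in the tumour and 0, 2.05, 0, 0.121 and 0 CPM in the lymph node (log2 fold change 6.52, adjusted p = 0.022, called in 12 of 22 alternative fits). Gata3, the Th2 master factor that many Tregs express, was not called (-0.21, adjusted p = 0.873).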
